A study of Mus musculus with 4 samples.

Results

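The 2 libraries labelled Tsku knockout, 1 from the cerebral cortex of an embryo (E14.5, in days of gestation) and 1 from a newborn cortex (P0), were compared with each other across all genes. A cell barcode was a member when it held 500 counts or more over no fewer than 300 genes, and when mitochondrially encoded genes took no more than 10% of them, which gave 4107 cells in the library labelled E14.5 knockout and 1436 in P0 knockout, 5543 of the 7210 cells kept from the 4 libraries of the series. The other 2 libraries, wild type at E14.5 (620 cells) and at P0 (1047 cells), were used only to show where the knockout-labelled pair differed. Each library came from 1 mouse, whose cortex was dissociated with trypsin and captured on the beads of the Asteria single-cell RNA kit, per the labels' protocols. The Tsku product, Tsukushi, belongs to the small leucine-rich proteoglycans and binds signalling molecules outside the cell. Allele, strain and deleted part of the gene are not stated in the labels used here.

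Tsku itself went against one of the labels. The library labelled E14.5 knockout held 74 Tsku counts in 74 cells, at most 1 count per cell, or 5.14 CPM (counts per 1000000; 95% interval 4.03 to 6.45). P0 knockout held 0 counts in 1436 cells, where 45.7 would have been counted at the level of the library labelled E14.5 knockout, so Tsku was at least 15.2-fold lower against a floor of 3 counts for the library (0.337 CPM). The wild-type libraries held 54 counts (9.63 CPM) at E14.5 and 42 (6.95 CPM) at P0. The label of the E14.5 library is therefore doubtful, and what follows compares a library of uncertain genotype with a knockout library. Sex differed as well: Xist, the RNA that coats the inactive X chromosome, had 6707 counts in the library labelled E14.5 knockout and 1 in P0 knockout, while Y-linked Ddx3y had 1 and 1183. Age, sex and genotype cannot be told apart in this pair, whereas both wild-type libraries carried Y-linked counts (Ddx3y, 496 and 666) and at most 3 counts of Xist.

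The sums held 14404051 counts in the library labelled E14.5 knockout and 8894856 in P0 knockout, with medians of 2829 and 5060 counts per cell, and mitochondrial shares had medians of 1.67% and 1.19%. No kept barcode was shared between these 2 libraries. Levels below are CPM of the summed counts, first in the library labelled E14.5 knockout and then in P0 knockout. A log2 ratio is the P0 level over the E14.5 level, so that 1 is a 2-fold higher and -1 a 2-fold lower level at P0. Intervals are 95% intervals of counting error alone, and with 1 library a group no difference between animals was tested and no p-value exists. In such sums, fewer cells of a type and less RNA per cell cannot be told apart.

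During the period covered by these libraries the mouse cortex passes from making neurons to making glia. Radial glia, the stem cells lining the ventricle, first produce intermediate progenitors and projection neurons, the deep layers before the upper ones, and later turn to astrocytes and oligodendrocyte precursors. Inhibitory neurons migrate in from the ganglionic eminences below the cortex, and the choroid plexus, meninges, vessels and microglia lie beside or within the tissue. Emx1, a homeobox factor that marks the dorsal, cortical part of the telencephalon, stood at 80.7 and 56.1 CPM, so the tissue label was matched in both libraries. Markers of neighbouring regions, given with the neurons, were counted as well, more so at E14.5.

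Of 14727 genes that had 30 or more counts when both sums were added, 1906 (12.9%) were at least 2-fold higher in P0 knockout and 906 (6.15%) at least 2-fold lower. A 4-fold difference was reached by 554 and 255 genes, and the whole counting interval lay beyond 2-fold for 1014 and 412. In the wild-type pair, 818 of 13270 genes (6.16%) were at least 2-fold higher at P0 and 671 (5.06%) lower. Over the 13228 genes measured in both pairs, 607 of the 1500 genes higher in the knockout-labelled pair were also higher in wild type, which is 40.5% of the former list and 74.7% of the latter (813 genes). Of the 653 lower genes, 325 were lower in wild type too, 49.8% of one list and 49.2% of the other. The 2 age ratios differed at least 2-fold for 1340 genes (10.1%), and the ratio was higher in the knockout-labelled pair for 979 of them. The median gene had a log2 ratio of 0.07 in both pairs. Each list count below stands beside the shares of 12.9% higher and 6.15% lower among all genes.

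**Figure D1:**
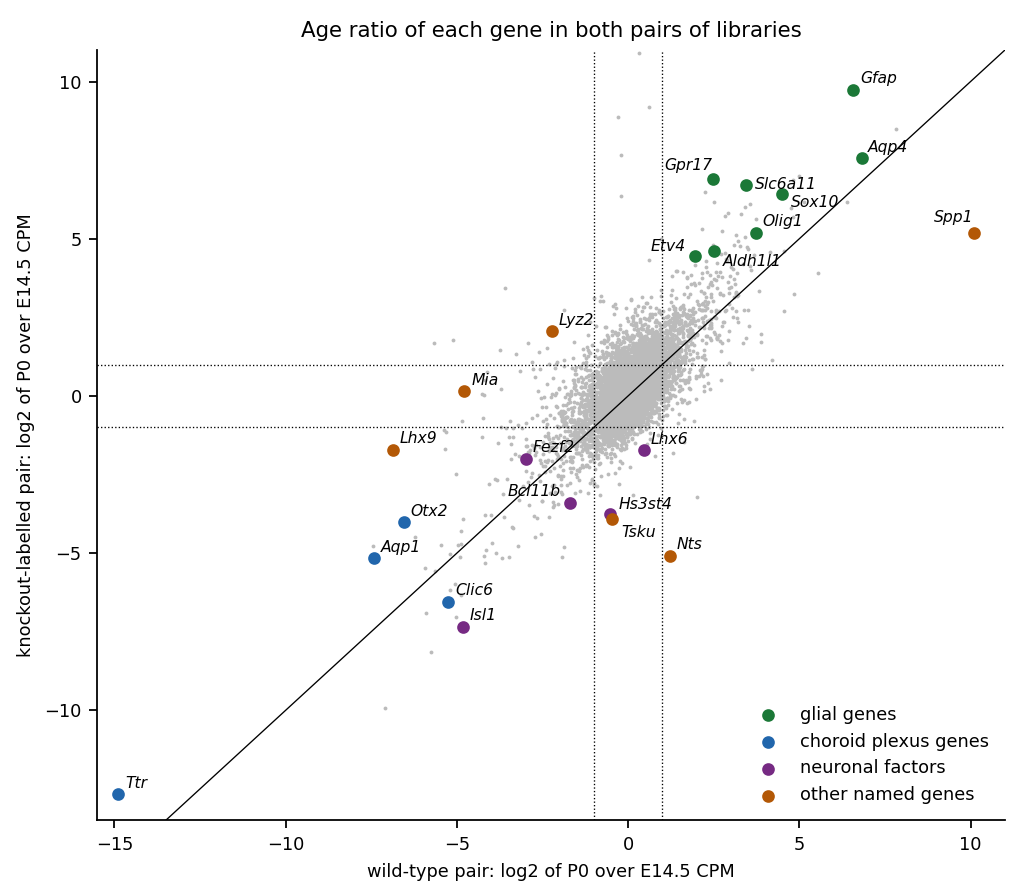
Log2 ratio of P0 over E14.5 CPM for 13228 genes, in the wild-type pair (horizontal axis) and in the knockout-labelled pair (vertical axis); dotted lines mark 2-fold and the diagonal marks equal ratios. Gfap, Gpr17 and Slc6a11 lie above the diagonal, Bcl11b, Hs3st4 and Lhx6 below it, and choroid plexus genes such as Ttr at the lower left.

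Radial glia genes differed unevenly. Of 13 measured members of the marker list, 6 (Hes5, Slc1a3, Fabp7, Ednrb, Dbi and Ptn) were at least 2-fold higher at P0 and 0 lower, where 12.9% and 6.15% of all genes were, and the median log2 ratio was 0.52 against 0.71 in the wild-type pair. Gene by gene, the ratio was higher in the knockout-labelled pair for 9 members and lower for 4, with a median difference of 0.51. Hes5, a Notch effector that keeps radial glia undifferentiated, stood at 66.1 and 624 CPM, a log2 ratio of 3.24 (3.14 to 3.34), with 2.69 in the wild-type pair. Fabp7, the brain lipid-binding protein of radial glia, stood at 569 and 5022 CPM (log2 ratio 3.14, 3.11 to 3.18), and Slc1a3, the glial glutamate transporter, at 113 and 993 CPM (log2 ratio 3.13, 3.06 to 3.21). In the wild-type pair the ratio was 2.27 for Fabp7 and 2.42 for Slc1a3. The transcription factors that mark radial glia at all stages differed less. Pax6 stood at 82.1 and 118 CPM (log2 ratio 0.52, 0.40 to 0.64) and Sox2 at 330.3 and 468 CPM (0.50, 0.44 to 0.56). Vim, an intermediate filament of neural progenitors, was the member with the lowest ratio, at 558 and 403 CPM (-0.47, -0.53 to -0.41), and Nes, another such filament, lay at 252 and 287 CPM (0.19, 0.11 to 0.26).

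Late and outer radial glia markers were higher as a group, 6 of 8 at least 2-fold and 0 lower, with a median of 2.09 (1.72 over the 7 measured in wild type). Tnc, the matrix glycoprotein tenascin C, stood at 31.4 and 535 CPM (log2 ratio 4.09, 3.95 to 4.23), and Ptprz1, a receptor phosphatase that binds pleiotrophin and tenascins, at 331 and 2429.7 CPM (2.88, 2.83 to 2.92). Their age ratios exceeded those of wild type by 1.08 (0.84 to 1.32) and 0.62 (0.54 to 0.70). Hopx and Fam107a, which mark outer radial glia in the human cortex, stood at 5.21 and 24.7 CPM (2.25, 1.86 to 2.65) and 0.903 and 16 CPM (4.14, 3.32 to 5.09). Itga2 was the 1 member with a ratio below 0, at 6.32 and 4.38 CPM (-0.53, -1.11 to 0.03), and its interval held 0.

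Astrocyte genes had some of the highest ratios of the whole table. All 18 measured members of the astrocyte list had a ratio above 0 and 15 were at least 2-fold higher, with a median of 2.78 against 1.68 over the 16 members measured in wild type. Summed over the list, they made up 1188 CPM in the library labelled E14.5 knockout and 6754 CPM in P0 knockout, and 1418 and 4334 CPM in the wild-type pair. Gfap, the intermediate filament of astrocytes, had 1 and 530 counts, or 0.0694 and 59.6 CPM, a log2 ratio of 9.75 (7.26 to 15.05) whose width reflects the single count at E14.5. Aqp4, the water channel of astrocyte endfeet, had 9 and 1049 counts (0.625 and 118 CPM, log2 ratio 7.56, 6.63 to 8.69); its counts lay in 9 of 4107 and 213 of 1436 cells. These 2 genes were near 0 in both E14.5 libraries, with 1 count of Gfap and 3 of Aqp4 in wild type.

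Genes of glutamate and GABA uptake followed. Slc1a2, the main glutamate transporter of astrocytes, stood at 85.8 and 525 CPM (log2 ratio 2.61, 2.52 to 2.71; 1.3 in wild type), and Slc6a11, a GABA transporter, at 1.6 and 167 CPM (6.71, 6.12 to 7.37; 3.45 in wild type). Slc6a11 was found in 23 of 4107 cells (0.56%) at E14.5 and in 406 of 1436 (28.3%) at P0. In wild type it was found in 28 of 620 (4.52%) and 266 of 1047 (25.4%). Such counts of cells, here and for other single genes, come from barcodes not brought to equal depth. Depth differed between the libraries, with medians of 2829 and 5060 counts in the knockout-labelled pair. Aldh1l1, a folate enzyme used as a general astrocyte marker, stood at 5.21 and 128 CPM (4.62, 4.28 to 4.98), against 17.3 and 98.3 CPM in wild type. The E14.5 levels of the 2 pairs lay further apart than the P0 levels, and the ratios differed by 2.11 (1.66 to 2.57). Apoe, the brain's main lipid carrier, stood at 152 and 1209.7 CPM (2.99, 2.93 to 3.06; 1.25 in wild type), and Mlc1, a membrane protein of endfeet, at 17.7 and 306 CPM (4.11, 3.92 to 4.3). Gja1, the gap junction protein connexin 43, was already present at E14.5, at 98.9 and 107 CPM, and its interval held 0 (0.11, -0.01 to 0.23). A second list, of genes that mark astrocyte maturation and that shares members with the first, had 16 of 18 genes at least 2-fold higher. Hepacam, an endfoot adhesion molecule, had 11 and 866 counts (0.764 and 97.4 CPM, log2 ratio 6.99, 6.15 to 8.0), and Kcnj10, a potassium channel of astrocytes, stood at 13.6 and 104 CPM (2.93, 2.71 to 3.16).

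Every measured oligodendrocyte lineage gene, 15 of 15, was at least 2-fold higher in P0 knockout, with a median of 3.73 against 2.22 over the 14 measured in wild type. The sixteenth member, Neu4, had 0 and 5 counts and did not reach the minimum of 30. The list as a whole made up 138.7 CPM in the library labelled E14.5 knockout and 1723 CPM in P0 knockout, and 179.4 and 970.4 CPM in the wild-type pair. Olig1 and Olig2, which specify the lineage, stood at 8.96 and 326 CPM (log2 ratio 5.19, 4.93 to 5.45) and 15.4 and 142 CPM (3.21, 3.00 to 3.42). Pdgfra, the growth factor receptor of oligodendrocyte precursors, stood at 29.3 and 325 CPM (3.47, 3.32 to 3.62; 2.34 in wild type), and Cspg4, the NG2 proteoglycan of the same cells, at 10.4 and 114 CPM (3.45, 3.20 to 3.71; 1.71 in wild type). Sox10, which drives differentiation along the lineage, had 5 and 267 counts (0.347 and 30.02 CPM, 6.43, 5.19 to 8.07). Olig1 was counted in 47 of 4107 cells (1.14%, 0.842 to 1.52) and 396 of 1436 (27.6%, 25.3 to 29.97), and Sox10 in 4 and 111 cells.

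Genes of the step after the precursor stage were also higher. Gpr17, a receptor of committed precursors, had 5 and 366 counts (0.347 and 41.1 CPM, log2 ratio 6.89, 5.65 to 8.52), against 3.03 and 17 CPM in wild type, a difference of the ratios of 4.4 (2.93 to 5.87). In wild type at E14.5, 15 of the 17 Gpr17 counts lay in 1 barcode, without which the wild-type ratio was 5.57 and the difference 1.31. The P0 knockout counts lay in 94 cells. Enpp6, a marker of newly forming oligodendrocytes, had 0 and 47 counts and was 25.4-fold higher with 0 set to 3 counts. Of its P0 counts, 55.3% lay in 1 barcode. Bcas1, of the same stage, stood at 1.94 and 34.7 CPM (4.16, 3.60 to 4.77). Among 6 measured genes of myelin and late oligodendrocytes, 5 were at least 2-fold higher and 1 lower. Mbp, a major myelin protein, stood at 13.5 and 30.5 CPM (1.17, 0.90 to 1.44), and Mag had 2 and 34 counts (4.78, 2.82 to 7.89). Of the P0 counts, 42.8% of those of Mbp and 67.6% of those of Mag lay in 1 barcode each. Cldn11, a claudin made in myelin and in the meninges, was the lower one, at 36.9 and 6.75 CPM (-2.45, -2.86 to -2.06). Without barcodes holding 5 or more counts of the blood, vessel, immune, meningeal or choroid lists its ratio was 2.21. Mog, Mobp, Opalin and Myrf did not reach the minimum, with at most 18 counts in a library.

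**Figure D2:**
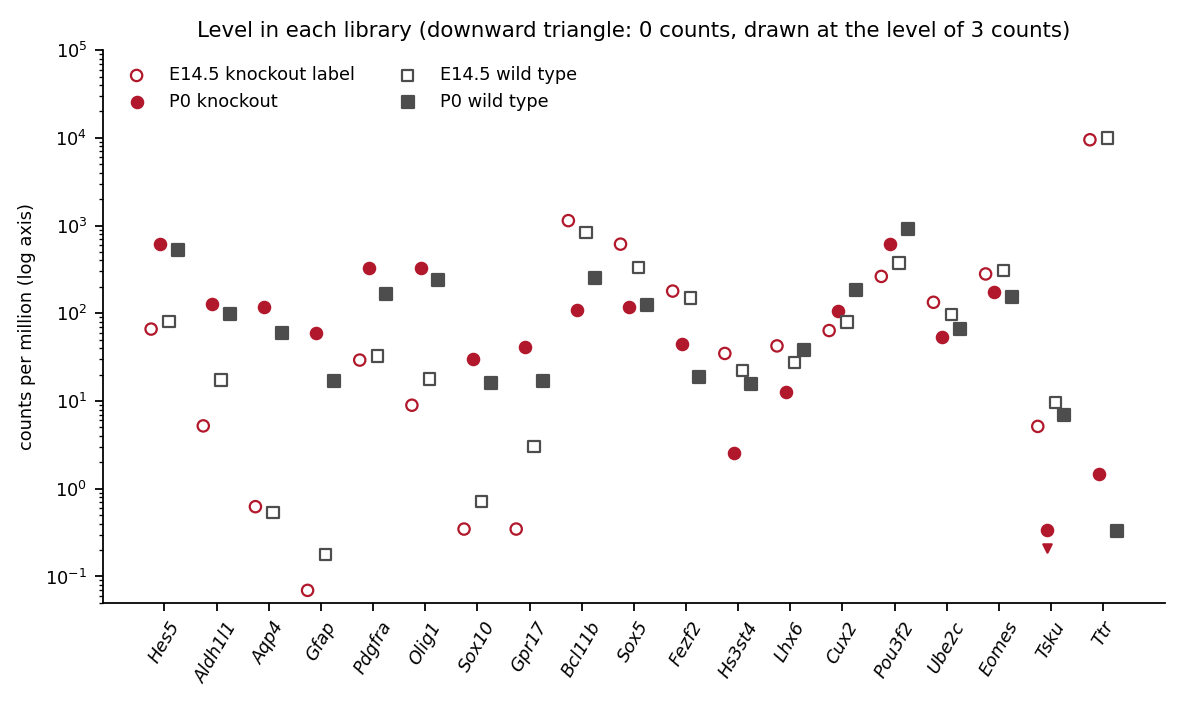
Level of 19 genes in the 4 libraries, in CPM on a log axis (red circles, knockout label; grey squares, wild type; open, E14.5; filled, P0; a triangle marks 0 counts drawn at the level of 3 counts). Glial genes are higher at P0 in both pairs, Hes5 from 66.1 to 624 CPM in the knockout-labelled one, deep layer genes and Ttr are lower, and Tsku is at 0 in P0 knockout alone.

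With sex-linked genes set aside, 4 of which (Ddx3y, Eif2s3y, Kdm5d and Uty) would otherwise be among the 15 genes with the highest ratios by the bound nearest 0, those 15 included 7 given above, Gfap, Aqp4, Hepacam, Slc6a11, Gpr17, Sox10 and Olig1. The others included Gpr37l1, a receptor of astrocytes, with 0 and 116 counts. With 0 set to 3 counts Gpr37l1 was 62.6-fold higher, and the lower bound of its log2 ratio was 5.65. Also included were Scrg1, at 0.555 and 30.8 CPM (5.79, 4.79 to 7.02), and Dio2, the deiodinase that activates thyroid hormone, at 2.36 and 116 CPM (5.62, 5.13 to 6.16). Pla2g3 (3 and 215 counts) and Ramp1 (13 and 423 counts) were also among them. The remaining 3 were Spp1, Gpnmb and Sspo, the SCO-spondin gene, whose 16.5 CPM in P0 knockout came from 147 counts in 10 cells.

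Transcription factors of gliogenesis differed unevenly. Of 14 measured, 8 were at least 2-fold higher and 0 lower, with a median of 1.42 (0.76 in wild type). Nfia and Nfib, which open the gliogenic period, were already high in the library labelled E14.5 knockout, at 736 and 751 CPM (log2 ratio 0.03, -0.02 to 0.07) and 2545 and 2605 CPM (0.03, 0.01 to 0.06). Their levels differed little between the ages. Nfix, of the same family, stood at 864 and 1659 CPM (0.94, 0.91 to 0.98), Zbtb20, a repressor that favours astrocyte fate, at 462 and 1921 CPM (2.06, 2.02 to 2.10; 0.83 in wild type), and Sox9, required for the switch to glia, at 199.7 and 417 CPM (1.06, 0.99 to 1.13).

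Signalling pathways of progenitors were examined by role. The counts of the Notch, FGF, Hedgehog, BMP and Wnt lists stand beside 12.9% higher and 6.15% lower among all genes. In the Notch list, 5 of 20 genes were at least 2-fold higher and 0 lower, with a median of 0.40 (0.46 in wild type). Among receptors, Notch1 stood at 113 and 225 CPM (log2 ratio 1.0, 0.90 to 1.09) and Notch2 at 45.2 and 55.1 CPM (0.29, 0.11 to 0.46). The ligand Dll1, made by newborn neurons and intermediate progenitors, was lower, at 68.3 and 43.8 CPM (-0.64, -0.81 to -0.47), and was higher in the wild-type pair (0.37); Jag1, another ligand, stood at 17.6 and 22.3 CPM (0.34, 0.07 to 0.62). Of the effectors, Hes5 was given above and Hes1 stood at 55.4 and 66.0 CPM (0.25, 0.10 to 0.41).

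The FGF list had 9 of 16 genes at least 2-fold higher and 2 lower, with a median of 1.03 against 0.33 in wild type. Receptors came first: Fgfr1 stood at 75.0 and 152 CPM (log2 ratio 1.02, 0.90 to 1.14), Fgfr3 at 48.3 and 143 CPM (1.57, 1.43 to 1.70) and Fgfr2 at 40.2 and 24.1 CPM (-0.74, -0.97 to -0.51), so that Fgfr2 lay in the other direction. Several but not all feedback inhibitors and ERK targets were at least 2-fold higher, and 4 of the 16 listed genes had ratios below 0. Among the higher were Spry2 at 18.5 and 91.7 CPM (2.31, 2.11 to 2.51) and the ETS factor Etv4 at 2.29 and 50.5 CPM (4.46, 3.95 to 5.02). Etv4 stood at 11.1 and 42.9 CPM in wild type, so the E14.5 levels of the 2 pairs lay further apart than the P0 levels. Both lower genes were ligands, Fgf15 with 218 and 3 counts (15.1 and 0.337 CPM, -5.49, -7.78 to -3.92) and Fgf18 with 106 and 9 counts (-2.86, -4.03 to -1.88). The ligands were lower in wild type too (-5.94 and -3.06).

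Among 11 Hedgehog genes, 3 were at least 2-fold higher and 0 lower. They were the pathway targets Gli1, at 1.46 and 18.8 CPM (log2 ratio 3.69, 3.03 to 4.42), Hhip, at 1.18 and 11.7 CPM (3.31, 2.56 to 4.14), and Ptch1, the receptor that is also a target, at 35.5 and 97.6 CPM (1.46, 1.3 to 1.62). The ligand Shh had 9 and 0 counts and was not measured, and the transducer Smo stood at 45.1 and 39.8 CPM (-0.18, -0.37 to 0.01). In the list of BMP and Id genes 5 of 19 were at least 2-fold higher and 1 lower: the target Id3 stood at 45.4 and 321 CPM (2.82, 2.70 to 2.94) and Id1 at 27.4 and 90.8 CPM (1.73, 1.56 to 1.91), while the ligand Bmp7 stood at 28.5 and 31.8 CPM with an interval that held 0 (0.16, -0.06 to 0.38). Of 20 Wnt genes, 1 was at least 2-fold higher and 4 lower. Wnt7a and Wnt7b, the ligands of cortical progenitors and neurons, stood at 23.0 and 43.4 CPM (0.92, 0.70 to 1.13) and 76.2 and 59.6 CPM (-0.36, -0.51 to -0.20). Rspo3, an R-spondin made at the cortical hem, stood at 81.2 and 13.7 CPM (-2.57, -2.85 to -2.30), and Lef1, a nuclear effector of the pathway, at 34.4 and 17.9 CPM (-0.95, -1.21 to -0.69).

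Intermediate progenitor genes showed smaller ratios than the glial lists. Of 12 measured, 0 were at least 2-fold higher and 2 lower, with a median of -0.28 (-0.23 in wild type). Eomes, the T-box factor that defines these cells, stood at 281 and 177 CPM (log2 ratio -0.67, -0.75 to -0.58) and was counted in 652 of 4107 (15.9%) and 193 of 1436 cells (13.4%). Neurog2, the proneural factor of the dorsal telencephalon, stood at 182 and 63.5 CPM (-1.52, -1.65 to -1.38; -0.88 in wild type), and Neurog1 had 83 and 5 counts (-3.36, -5.02 to -2.08). Both proneural genes were lower, and so was Nhlh1, a factor of newborn neurons, at 34.5 and 9.11 CPM (-1.92, -2.28 to -1.58). Other members were close to their E14.5 level, such as Insm1, at 277 and 253 CPM (-0.13, -0.21 to -0.06), and Neurod1, at 145 and 146 CPM (0.00, -0.10 to 0.10; -0.95 in wild type). Sox11, which is abundant in immature neurons, stood at 6071 and 3463 CPM (-0.81, -0.83 to -0.79).

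Projection neuron markers shared by all layers had ratios below 0 in 8 of 8 cases, and 3 were at least 2-fold lower (6.15% of all genes). Neurod6, a factor of postmitotic projection neurons, stood at 753 and 287 CPM (log2 ratio -1.39, -1.46 to -1.33), and Neurod2, its paralogue, at 573 and 432 CPM (-0.41, -0.46 to -0.35). Slc17a7, a vesicular glutamate transporter of mature neurons, had 317 and 18 counts (22 and 2.02 CPM, -3.44, -4.22 to -2.76), whereas Slc17a6, the form used earlier, stood at 88.0 and 86.1 CPM (-0.03, -0.16 to 0.10). General neuronal genes followed: of 17 measured, 1 was at least 2-fold higher and 5 lower. Tubb3, the neuronal tubulin, stood at 2052 and 1158 CPM (-0.83, -0.86 to -0.79), Dcx, of migrating neurons, at 1199 and 974 CPM (-0.30, -0.34 to -0.26), Nefl, a neurofilament, at 33.3 and 4.05 CPM (-3.04, -3.57 to -2.55) and Ina, another, at 649 and 111 CPM (-2.55, -2.64 to -2.45).

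Most deep layer genes were lower. Of 12 measured, 9 were at least 2-fold lower in P0 knockout and 0 higher, with a median of -1.58; in wild type 5 of the same 12 were lower and the median was -0.93. Bcl11b, also called Ctip2, which specifies subcerebral neurons and is also made in striatal neurons, stood at 1139 and 108 CPM (log2 ratio -3.39, -3.49 to -3.30) and was counted in 2696 of 4107 (65.6%) and 334 of 1436 cells (23.3%). In wild type it stood at 831 and 256 CPM, a ratio of -1.70, so the ratios differed by -1.69 (-1.82 to -1.57). Sox5, which orders the birth of deep layer neurons, stood at 614 and 119 CPM (-2.37, -2.47 to -2.28; -1.43 in wild type), and Tbr1, the layer 6 factor, at 171 and 78.5 CPM (-1.12, -1.25 to -1.0; -0.27 in wild type). Foxp2 stood at 76.0 and 21.0 CPM (-1.85, -2.08 to -1.63; -0.52 in wild type).

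Fezf2, the master regulator of subcerebral neurons, went against this order: it stood at 179 and 44.5 CPM (log2 ratio -2.01, -2.17 to -1.86), less low than in wild type (149 and 19 CPM, -2.97), with a difference of 0.96 (0.64 to 1.28). Hs3st4, a heparan sulfate sulfotransferase of layer 6, had 502 and 23 counts (34.9 and 2.59 CPM, -3.75, -4.42 to -3.15) but 22.5 and 15.6 CPM in wild type, which gave one of the lowest differences of all genes, -3.22 (-3.94 to -2.51). In P0 wild type 57 of its counts lay in 1 barcode, and without it the difference was -1.88. Syt6, a synaptotagmin of layer 6 neurons, behaved alike, with 373 and 48 counts (-2.26, -2.73 to -1.83) and 17.7 and 18.5 CPM in wild type. When both sums were limited to barcodes with 3 or more counts of the projection neuron list (2009 of 4107 and 689 of 1436), 9 of 12 deep layer genes were again at least 2-fold lower, with a median of -1.57. The deep layer median was nearly equal in all cells and within that range, while the upper layer median was 0.79 there. The range was set without equal depth, and its barcodes had medians of 3081 and 4941 counts. At 1500 counts per barcode, 42.5% and 31.9% of barcodes reached 3 counts of the list. The range therefore need not hold like cells at the 2 ages, which limits every value given for it.

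Of 14 measured upper layer genes, 4 were at least 2-fold higher and 0 lower, with a median of 0.63 (0.71 in wild type, where 5 were higher). Pou3f2, the POU factor Brn2, stood at 263 and 622 CPM (log2 ratio 1.24, 1.18 to 1.3), its relative Pou3f3 at 367 and 747 CPM (1.03, 0.97 to 1.08), and Unc5d, a netrin receptor of migrating upper layer neurons, at 73.8 and 166 CPM (1.17, 1.06 to 1.29). Cux2, the homeobox factor of layers 2 to 4, stood at 63.6 and 107 CPM (0.76, 0.62 to 0.89) and at 79.6 and 186 CPM in wild type.

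Of 18 measured inhibitory neuron genes, 8 were at least 2-fold lower and 0 higher, with a median of -0.76; in wild type 1 was lower and 2 higher, with a median of -0.02. The difference between the pairs was below 0 for 16 of 18 genes. Gad2, a GABA-synthesising enzyme, stood at 151 and 65.4 CPM (log2 ratio -1.21, -1.34 to -1.07; 0.16 in wild type), while Gad1 stood at 34.9 and 25.6 CPM (-0.45, -0.68 to -0.22). Dlx2 and Dlx6, homeobox factors of the ganglionic eminences, stood at 105 and 49.2 CPM (-1.09, -1.24 to -0.93) and 37.4 and 9.67 CPM (-1.95, -2.30 to -1.62). Lhx6, the factor of interneurons from the medial eminence, stood at 42.5 and 12.8 CPM (-1.73, -2.03 to -1.44) but at 27.5 and 38.1 CPM in wild type (0.47), a difference of -2.20 (-2.61 to -1.79). Sp8, of interneurons from the caudal and lateral eminences, was the member with the highest ratio, at 22.6 and 41.3 CPM (0.87, 0.65 to 1.09; 2.16 in wild type).

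Within the projection neuron range of 3 or more counts the median of the measured members was 1.02. That range selects against inhibitory neurons by construction: after thinning, it held 5.31% and 12.6% of barcodes with 3 or more inhibitory counts. Its barcodes also differed in depth, with medians of 3081 and 4941 counts. This median therefore does not bear on the direction of the list over all cells.

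Genes of striatal neurons, which lie next to the cortex, were lower beside the inhibitory list. Of 12 measured, 8 were at least 2-fold lower and 0 higher, with a median of -1.68. Isl1, a homeobox factor of striatal projection neurons, had 791 and 0 counts and was 163-fold lower with 0 set to 3 counts. The bound of its log2 ratio nearest 0 was -7.05. A count of it was found in 279 of 4107 cells (6.79%) and 0 of 1436. The exact upper bound of 0.257% at P0 limits cells with a count, not cells that express the gene. Six3 stood at 36.2 and 2.47 CPM (log2 ratio -3.87, -4.56 to -3.26) and Ebf1 at 103 and 10.1 CPM (-3.35, -3.67 to -3.04). Meis2, a homeobox factor made in many forebrain neurons, carried most of the summed level of the list, at 818 and 1026 CPM, and was not lower (0.33, 0.29 to 0.37). With Meis2 included, the 12 genes summed to 1298.6 and 1136.8 CPM, and at 1351.5 and 1672.6 CPM in the wild-type pair. How much of the inhibitory and Bcl11b differences came with striatal-type genes was not tested. In the thalamic-type list, 3 of 8 genes were at least 2-fold higher and 3 lower. Gbx2, a thalamic homeobox factor, had 160 and 0 counts and was 32.9-fold lower with 0 set to 3 counts (log2 bound nearest 0, -4.73). Tcf7l2, a Wnt effector abundant in thalamus, stood at 134 and 33.1 CPM (-2.02, -2.20 to -1.84).

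Cajal-Retzius genes, of the earliest neurons at the cortical surface, stood nearer their E14.5 level at P0 in this pair than in wild type. Of 9 measured, 2 were at least 2-fold higher and 2 lower, with a median of 0.09, while in wild type 6 were lower and the median was -1.87; all 9 differences lay above 0. With barcodes weighted equally the knockout-labelled median was -0.32. Reln, the secreted signal these cells are known for, stood at 48.1 and 58.0 CPM (log2 ratio 0.27, 0.10 to 0.44) and at 86.2 and 33.6 CPM in wild type (-1.36). Reln rested on few barcodes: without the richest 1 of P0 knockout, with 153 counts, its ratio was -0.24, and without the richest 1 of E14.5 wild type, with 251 counts, the wild-type ratio was -0.31. Trp73, a p53 relative confined to few cell types, had 76 and 50 counts (0.09, -0.45 to 0.63), and 5.71 and 1.32 CPM in wild type. All 8 counts of Trp73 in P0 wild type lay in 1 barcode, and without the richest barcode of P0 knockout its ratio there was -0.34. Lhx1 stood at 11.8 and 6.52 CPM (-0.86, -1.31 to -0.42) and Lhx5 at 15.1 and 3.71 CPM (-2.03, -2.60 to -1.5). Calb2, the calcium-binding protein calretinin, which interneurons also make, stood at 22.8 and 66.9 CPM (1.55, 1.35 to 1.75). Lhx9 and Prox1, listed among thalamic-type genes but made in hippocampal and hem-derived cells as well, also had higher ratios here than in wild type: Lhx9 stood at 73.1 and 22.4 CPM against 58.3 and 0.497 CPM in wild type, a difference of 5.17 (3.51 to 6.82), and Prox1 at 49.6 and 114 CPM against 54.8 and 30.1 CPM, a difference of 2.06 (1.77 to 2.36). Prox1 was named after its values were seen, and the part of hippocampal and hem-type cells in these differences was not tested.

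**Figure D3:**
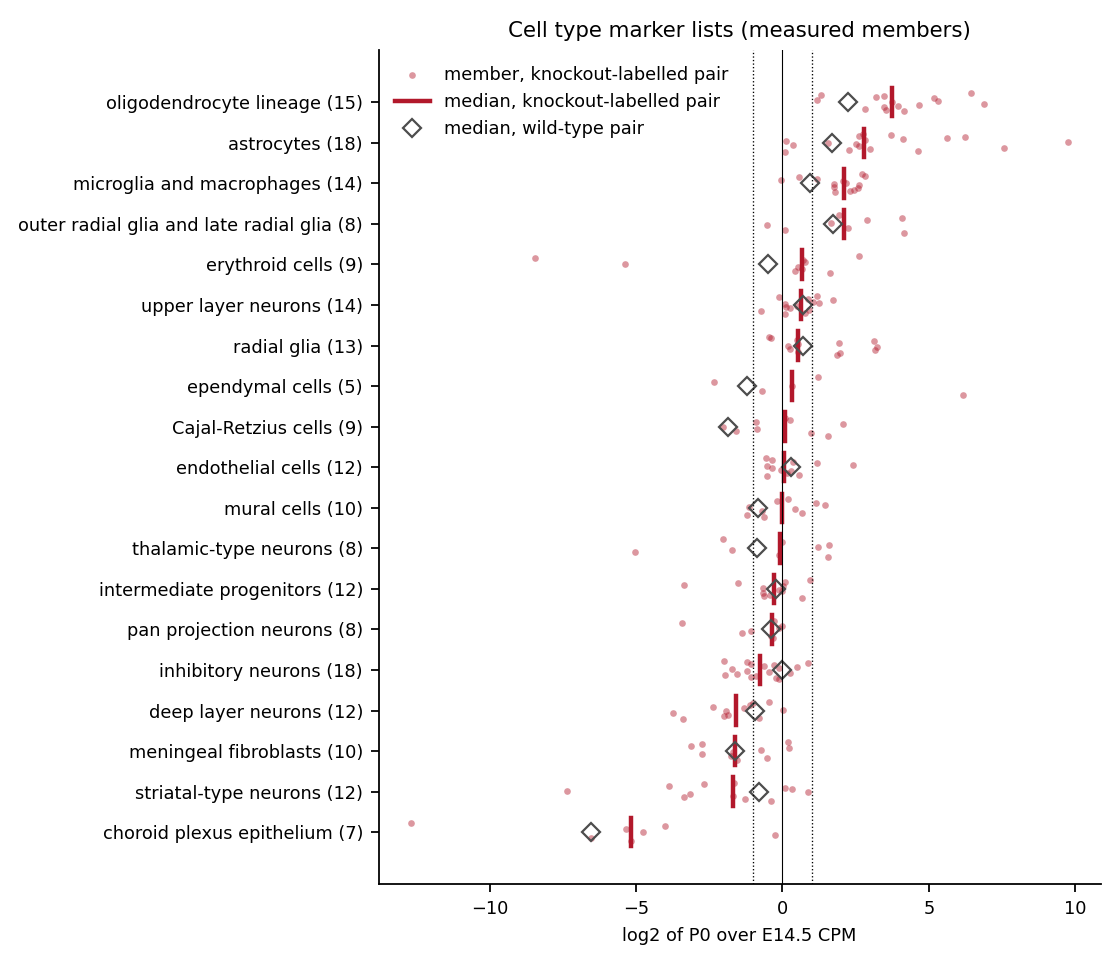
Log2 ratio of P0 over E14.5 CPM for the measured members of 19 cell type marker lists, with the number measured in parentheses (points, members in the knockout-labelled pair; red bar, their median; open diamond, median of the wild-type pair; dotted lines, 2-fold). Oligodendrocyte lineage (3.73) and astrocytes (2.78) have the highest medians and choroid plexus epithelium (-5.17) the lowest, and the Cajal-Retzius bar (0.09) lies above its diamond (-1.87).

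Shares of cells were set beside these sums. Each barcode was thinned to 1500 counts, which left out 141 shallower barcodes at E14.5 in the knockout-labelled pair and 1 of each other library, and a barcode with 5 or more counts of a list was counted as in its range, which is a range of values and not a cell type. The oligodendrocyte lineage range held 0.277% of cells (0.139 to 0.496) at E14.5 and 15% (13.2 to 16.9) at P0 in the knockout-labelled pair, and 0.646% and 7.27% in wild type. Without thinning the shares were 1.56% and 34.9%. Barcodes in the projection neuron range, which should lack these genes, gave 0 of 1225 and 0 of 284. Of all barcodes, 10 and 70 had 4 or 5 counts, at the edge of the range. The difference between these shares was not tested, since each comes from 1 library.

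The astrocyte range held 8.47% (7.62 to 9.38) and 33.0% (30.6 to 35.5), and 11.8% and 24.9% in wild type; unthinned shares were 20.7% and 56.8%. The radial glia range, whose genes are also made by astrocytes, held 27.4% and 51.1%, with 4.57% and 18.3% of projection-range barcodes. Shares of the neuronal lists were lower at P0 for projection neurons (30.9% and 19.8%; 36.5% and 30.02% in wild type), deep layers (53.9% and 44.7%) and inhibitory neurons (19.3%, 18 to 20.5, and 10.5%, 8.92 to 12.2; 17.9% and 16.3% in wild type). In wild type the deep layer range held 55.7% and 45.6%. Nfib, which is also listed with the gliogenic factors, carried most of the summed level of the deep layer list (4957 and 3067.5 CPM). Its part in the deep layer shares was not tested. The upper layer range held 23.0% and 38.7%, and 27.9% and 51.0% in wild type. Unthinned, 43.6% and 43.0% of barcodes were in the projection neuron range and 71.9% and 83.4% in the deep layer range, so the order of the deep layer shares depends on equal depth.

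**Figure D4:**
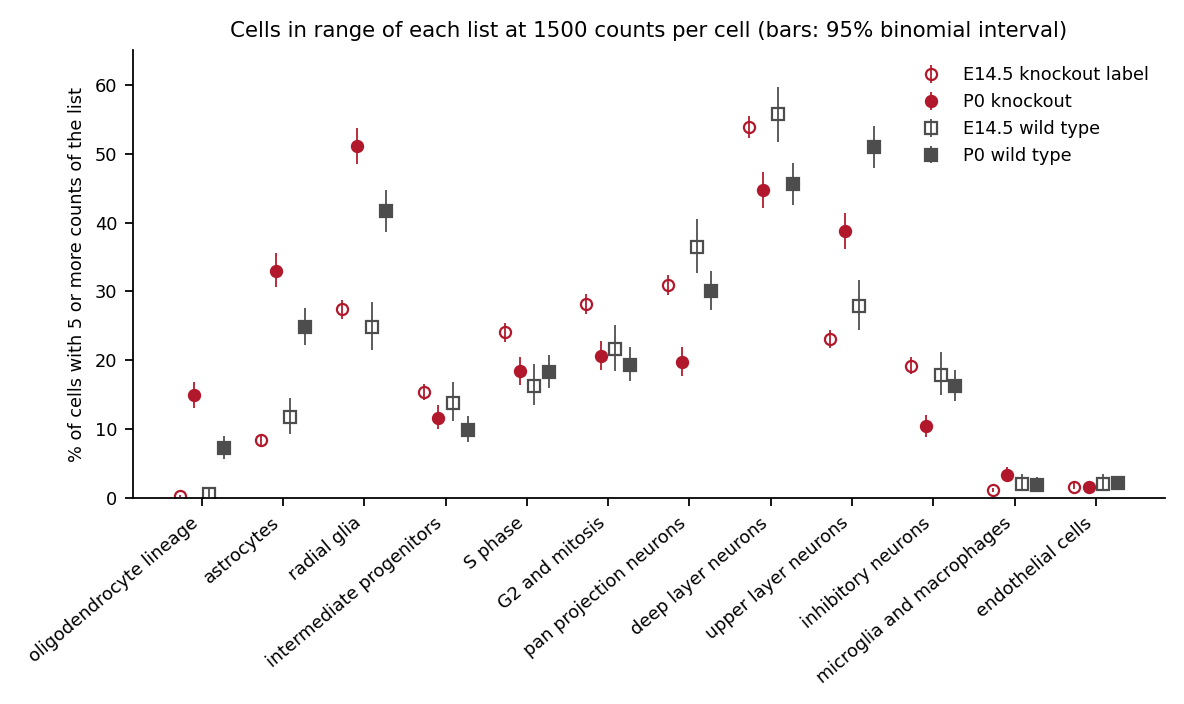
Percentage of cells with 5 or more counts of each of 12 lists after thinning to 1500 counts per cell, in the 4 libraries (symbols as in the plot of levels; bars, 95% binomial interval of counting error). The oligodendrocyte lineage range holds 0.277% and 15% of cells in the knockout-labelled pair, and the inhibitory range is lower at P0 in that pair (19.3% and 10.5%).

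None of 40 S phase genes reached 2-fold in either direction (12.9% and 6.15% of all genes did), with a median of -0.17 (0.25 in wild type). Pcna, the DNA polymerase clamp, stood at 375 and 321 CPM (log2 ratio -0.23, -0.29 to -0.16), and Mcm2, of the replicative helicase, at 74.1 and 56.5 CPM (-0.39, -0.55 to -0.24). Among 52 genes of G2 and mitosis, 6 were at least 2-fold lower and 0 higher, 45 had ratios below 0, and the median was -0.53 against 0.09 in wild type. The 6 lower genes became 9 with TMM or DESeq2 scaling and 20 with barcodes weighted equally (median -0.85). The difference between the pairs was below 0 for 49 of 52. The 6 were Ube2c, Bub1, Ect2, Ttk, Bub1b and Nusap1. Ube2c, the ubiquitin-conjugating enzyme of the anaphase-promoting complex, stood at 134 and 54.1 CPM (-1.3, -1.45 to -1.16). Bub1 and Bub1b, kinases of the spindle checkpoint, stood at 53.2 and 22.3 CPM (-1.26, -1.49 to -1.03) and 46.9 and 21.2 CPM (-1.14, -1.38 to -0.91), and Ttk, another checkpoint kinase, at 29.2 and 12.5 CPM (-1.23, -1.54 to -0.92). Ect2, which sets the cleavage furrow, stood at 37.1 and 15.7 CPM (-1.24, -1.51 to -0.96) and Nusap1, a spindle protein, at 104 and 48.1 CPM (-1.11, -1.27 to -0.95). Mki67 and Top2a, common markers of dividing cells, stood at 429 and 254 CPM (-0.75, -0.82 to -0.68) and 505 and 301 CPM (-0.75, -0.81 to -0.69). After thinning, the G2 and mitosis range held 28.1% and 20.6% of cells (21.6% and 19.4% in wild type) and the S phase range 24.1% and 18.4% (16.3% and 18.4% in wild type); without thinning they held 52.6% and 73.4%, and 43.5% and 63.8%. Among projection-range barcodes 8.65% and 7.04% lay in the G2 and mitosis range. Within barcodes of the projection neuron range the medians of both lists were above 0 (0.21 for S phase, 0.22 for G2 and mitosis).

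The promoters of 4 of these checkpoint and anaphase genes are shown because the G2 and mitosis genes share elements that the rule for choosing cells did not use. They come from RefSeq on GRCm38.p6, an older build than the GRCm39 named for the count tables, run 5′ to 3′ along the gene over 300 bases around its start, and carry in capitals each CCAAT box (CCAAT, read as ATTGG on the other strand) and each cell cycle homology region, or CHR (TTTGAA and its variant TTCGAA, the former read as TTCAAA on the other strand).
Ube2c (chr2:164769679-164769978, + strand): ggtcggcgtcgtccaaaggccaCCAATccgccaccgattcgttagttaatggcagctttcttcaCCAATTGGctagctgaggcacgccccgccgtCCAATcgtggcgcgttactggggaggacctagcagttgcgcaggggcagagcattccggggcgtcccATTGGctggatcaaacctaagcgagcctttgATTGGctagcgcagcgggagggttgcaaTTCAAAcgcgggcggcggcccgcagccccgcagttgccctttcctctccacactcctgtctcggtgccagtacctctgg
Bub1 (chr2:127831810-127832109, - strand): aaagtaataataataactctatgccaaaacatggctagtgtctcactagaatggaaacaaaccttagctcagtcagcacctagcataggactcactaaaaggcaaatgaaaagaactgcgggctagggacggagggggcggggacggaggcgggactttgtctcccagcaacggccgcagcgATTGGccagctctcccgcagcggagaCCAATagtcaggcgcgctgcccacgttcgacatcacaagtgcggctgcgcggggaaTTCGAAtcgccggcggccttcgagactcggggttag
Bub1b (chr2:118597961-118598260, + strand): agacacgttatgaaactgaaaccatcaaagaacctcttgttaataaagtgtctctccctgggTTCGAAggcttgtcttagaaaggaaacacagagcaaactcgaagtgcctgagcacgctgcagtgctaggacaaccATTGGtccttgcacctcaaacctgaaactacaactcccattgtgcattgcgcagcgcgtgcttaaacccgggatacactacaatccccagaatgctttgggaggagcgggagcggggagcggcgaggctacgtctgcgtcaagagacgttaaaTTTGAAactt
Ttk (chr9:83834439-83834738, + strand): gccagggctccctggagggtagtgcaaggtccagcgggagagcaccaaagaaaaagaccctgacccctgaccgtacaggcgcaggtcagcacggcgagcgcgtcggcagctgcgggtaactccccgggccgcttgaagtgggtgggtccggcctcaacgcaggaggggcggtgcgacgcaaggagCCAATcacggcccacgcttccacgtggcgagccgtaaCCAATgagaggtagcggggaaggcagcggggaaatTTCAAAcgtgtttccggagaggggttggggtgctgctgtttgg

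Ube2c had 6 CCAAT boxes and 1 CHR in this window, 2 of the boxes overlapping on opposite strands, Bub1 2 and 1, Bub1b 1 and 2, and Ttk 2 and 1. In Ube2c the CHR lies downstream of all 6 CCAAT boxes. Over the whole list, of 48 promoters matched for 45 of the 52 genes, 38 (79.2%) held a CHR, against 13.6% of 13873 promoters of measured genes, 37 (77.1%) a CCAAT box, against 37.6%, and 32 (66.7%) both, against 5.56%. For S phase, 28 of 40 genes matched 32 promoters, of which 6 (18.8%) held a CHR and 21 (65.6%) an E2F core (TTGGCGC with the variants TTCCCGC and also TTCGCGC, on either strand), a motif found in 14.1% of all promoters and in 9 of the 48 (18.8%) of G2 and mitosis. A CCAAT box lay in 21 of the 32 S phase promoters (65.6%), so it was frequent in both lists, and a CCAAT box with a CHR lay in 4 (12.5%). The E2F core read on the other strand can overlap a CCAAT box, as it does in Ect2. Nusap1 held none of the 3 motifs in its window. A match describes the sequence and is not a test of binding.

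**Figure D5:**
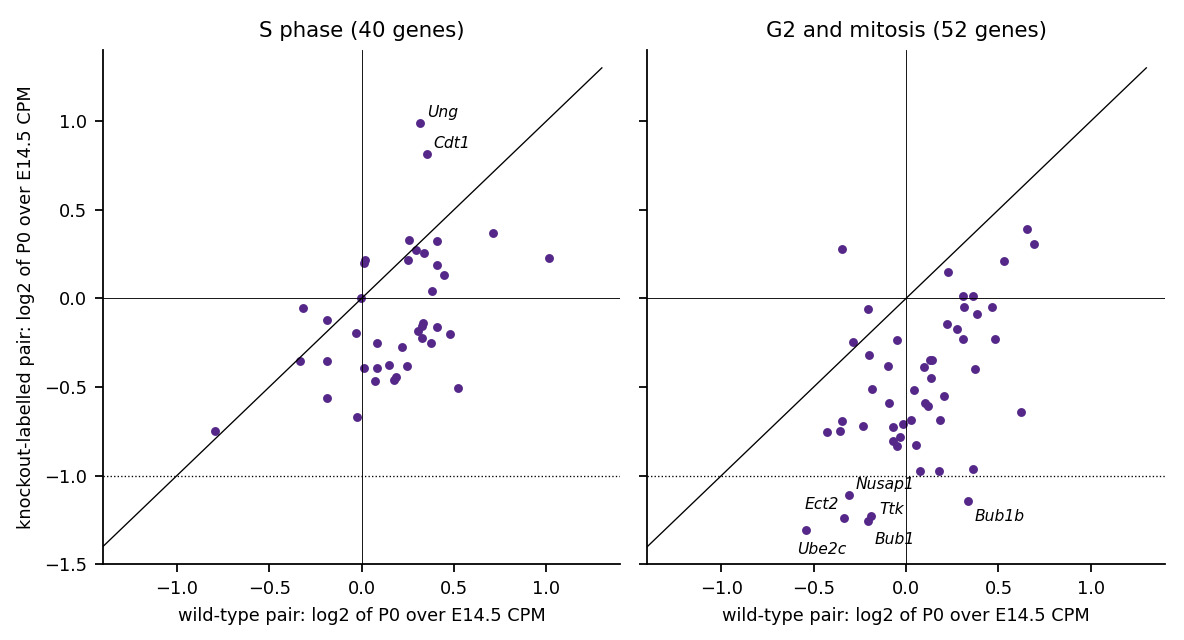
Log2 ratio of P0 over E14.5 CPM of each S phase gene (40, left) and each G2 and mitosis gene (52, right), in the wild-type pair (horizontal axis) and the knockout-labelled pair (vertical axis), with the diagonal of equal ratios and a dotted line at 2-fold lower. Most G2 and mitosis genes (49) lie below the diagonal, and the 6 named ones lie below -1.

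The choroid plexus list had 6 of 7 genes at least 2-fold lower and 0 higher, with a median of -5.17 (-6.54 in wild type). Ttr, the thyroid hormone carrier that choroid epithelium secretes, had 137039 and 13 counts (9514 and 1.46 CPM, log2 ratio -12.67, -13.58 to -11.89). Those counts lay in 1232 of 4107 cells, and in 9 of 1436 cells at P0. Clic6, a chloride channel, had 908 and 6 counts (-6.55, -8.0 to -5.42), and Otx2, the homeobox factor of the choroid, 1205 and 46 counts (-4.02, -4.47 to -3.59). With Xist and Tsix, an RNA that overlaps Xist, set aside, the 15 genes with the lowest ratios by the bound nearest 0 were led by Ttr and by Kcne2, a potassium channel subunit, with 1568 and 1 counts; they included the choroid and epithelial genes Clic6, Car12, Aqp1, Tmem72, Prr32, Krt18, Krt8 and Slc4a5, of which the last 4 had 0 counts in P0 knockout, the collagen Col8a1 (192 and 1 counts), the homeobox gene Shox2 (168 and 0 counts) and Htr2c, the serotonin receptor of the choroid plexus (460 and 1 counts, -8.15, -13.46 to -5.66). Isl1 and Gbx2 were also among them. Enpp2, which is made outside the choroid too, was the exception among the 7, at 98.4 and 82.6 CPM (-0.25, -0.38 to -0.12).

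Meningeal fibroblast genes were lower in 6 of 10 cases and higher in 0, with a median of -1.61 (-1.62 in wild type). Col1a1 and Col3a1, fibrillar collagens, stood at 72.3 and 24.6 CPM (log2 ratio -1.55, -1.77 to -1.34) and 201 and 58.8 CPM (-1.77, -1.91 to -1.64), and Col1a2 at 213 and 148 CPM (-0.53, -0.62 to -0.44). Of the small leucine-rich proteoglycans, 4 of 8 measured, Tsku included, were at least 2-fold lower, and 3 had ratios above 0. The lower ones other than Tsku, which were Lum, Ogn and Dcn, are also members of the meningeal list, so they are no separate result. Lum, or lumican, had 323 and 23 counts (-3.12, -3.79 to -2.51), Ogn, or osteoglycin, 412 and 38 counts (-2.74, -3.26 to -2.26), Dcn, or decorin, 915 and 177 counts (-1.67, -1.92 to -1.44), and Bgn, or biglycan, 284 and 132 counts (-0.41, -0.72 to -0.11). Collagens as a family had 7 of 16 lower and 1 higher. Col4a1 and Col4a2, of the vascular basement membrane, stood at 116 and 78.8 CPM (-0.56, -0.68 to -0.43) and 84.4 and 54.5 CPM (-0.63, -0.79 to -0.48).

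Vessel genes differed little, and their counts stand beside 12.9% higher and 6.15% lower among all genes. In the endothelial list 2 of 12 were at least 2-fold higher and 0 lower; Cldn5, the tight junction claudin, stood at 66.4 and 97.5 CPM (log2 ratio 0.55, 0.42 to 0.69), Pecam1 at 19.6 and 25.0 CPM (0.35, 0.09 to 0.60) and Kdr, the VEGF receptor, at 67.7 and 47.3 CPM (-0.52, -0.68 to -0.35). Mural genes had 2 of 10 higher and 2 lower, with Rgs5 at 96.6 and 85.4 CPM (-0.18, -0.31 to -0.05) and Pdgfrb at 10.5 and 23.0 CPM (1.14, 0.83 to 1.45).

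Microglia and macrophage genes were higher in 12 of 14 cases and lower in 0, with a median of 2.11 (0.93 in wild type). The complement genes C1qa and C1qb stood at 19.6 and 96.5 CPM (log2 ratio 2.30, 2.10 to 2.49) and 22.4 and 121 CPM (2.43, 2.25 to 2.62), and Cx3cr1, the fractalkine receptor of microglia, at 38.5 and 132 CPM (1.77, 1.63 to 1.92). Border macrophage genes were nearer level: Mrc1 stood at 34.5 and 33.5 CPM (-0.04, -0.25 to 0.17) and Pf4 at 27.7 and 41.0 CPM (0.57, 0.36 to 0.78), both of which were lower at P0 in wild type (-2.45 and -2.20). The microglia range held 1.19% of cells (0.872 to 1.57) and 3.41% (2.54 to 4.49). In wild type it held 2.10% (13 barcodes) and 2.01% (21 barcodes). Spp1, or osteopontin, and Gpnmb, genes of activated phagocytes, were among the 15 highest ratios, with 131 and 2956 counts and 2 and 447 counts, but 45.2% of Spp1 and 56.6% of Gpnmb counts of P0 knockout lay in 1 barcode. Without the barcodes richest in these 2 genes, 1881 genes were at least 2-fold higher and 902 lower.

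Blood genes were uneven. Hbb-bs, an adult-type globin gene, stood at 596 and 1007 CPM (log2 ratio 0.76, 0.71 to 0.80) in 1374 of 4107 and 626 of 1436 cells. Without the 10 barcodes richest in it in each library, which held 70.6% and 89.4% of its counts, it stood at 175 and 108 CPM (log2 ratio -0.70), so its direction rests on those barcodes. The embryonic globin Hbb-y, named after its values were seen, had 1693 and 0 counts (118 and 0 CPM) in 261 and 0 cells, and only 1 count in wild type at E14.5. In E14.5 knockout 42.9% of its counts lay in 1 barcode. Hba-x, another embryonic globin, had 200 and 0 counts. These globins belong to the primitive red cells of the younger embryo, and the 2 E14.5 libraries thus differed in them. Of 5 measured ependymal genes 2 were at least 2-fold higher and 1 lower, and their median depended on which barcodes were summed. Ccdc153, a cilium gene, had 3 and 132 counts (6.15, 4.58 to 8.45), and Foxj1, the master regulator of motile cilia, stood at 21.0 and 26.2 CPM (0.32, 0.06 to 0.57; -1.55 in wild type). Of the P0 counts of Ccdc153, 56.1% lay in 1 barcode.

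Of 10 measured heterochronic RNA-binding and HMGA genes, which time development, 5 were at least 2-fold lower and 0 higher, with a median of -1.03 (-0.47 in wild type). Lin28b, which blocks let-7 maturation, had 96 and 7 counts (-3.08, -4.43 to -1.98), Igf2bp1, Igf2bp2 and Igf2bp3, fetal messenger RNA-binding proteins, had log2 ratios of -1.93, -2.83 and -1.37, and Hmga2, a chromatin protein of young neural stem cells, stood at 14.5 and 4.16 CPM (-1.80, -2.35 to -1.29). Hmga1 stood at 8.33 and 6.41 CPM, with an interval that held 0. The median was -1.49 among projection-range barcodes, whose depth differed between the ages.

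Imprinted genes, many of them growth regulators that are silenced after birth, were lower in 12 of 20 cases and higher in 0, with a median of -1.44 (-0.85 in wild type). Cdkn1c, the cell cycle inhibitor p57, stood at 245 and 57.9 CPM (log2 ratio -2.08, -2.22 to -1.95), H19, a fetal noncoding RNA, at 157 and 57.3 CPM (-1.45, -1.59 to -1.31), and Dlk1, a Notch-like ligand, at 26.5 and 6.63 CPM (-2.0, -2.42 to -1.6). Peg3 stood at 252 and 172 CPM (-0.55, -0.64 to -0.46), Meg3 at 397 and 284 CPM (-0.48, -0.55 to -0.42) and Igf2 at 41.0 and 48.2 CPM (0.24, 0.05 to 0.42). Magel2 had the lowest ratio of the list, at 14.4 and 1.46 CPM (-3.30, -4.24 to -2.50). Among projection-range barcodes the median was -1.05.

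Replication histones, whose messages rise in S phase and mostly lack a poly(A) tail, had 6 of 10 genes at least 2-fold lower and 0 higher. H2ax stood at 105 and 51.9 CPM (log2 ratio -1.01, -1.16 to -0.86), H1f4 at 58.3 and 19.7 CPM (-1.57, -1.81 to -1.33) and H1f5 at 9.23 and 0.899 CPM (-3.36, -4.60 to -2.34), while H1f0, the variant of resting cells, stood at 408 and 446 CPM (0.13, 0.07 to 0.19). Neuronal splicing factors had 3 of 14 lower and 0 higher, where 6.15% of all genes were lower and 12.9% higher. The 3 were Khdrbs2, Elavl4, or HuD, and Elavl2, or HuB, the last 2 at 483 and 173 CPM (-1.48, -1.56 to -1.4) and 474 and 224 CPM (-1.08, -1.16 to -1.01), whereas Rbfox1 stood at 123 and 166 CPM (0.43, 0.33 to 0.53) and Ptbp1, the repressor of neuronal exons in progenitors, at 87.0 and 113 CPM (0.38, 0.26 to 0.50).

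Synaptic lists showed no common direction, and their counts stand beside 12.9% higher and 6.15% lower among all genes. Release genes had 1 of 20 higher and 4 lower: Syt1, the calcium sensor of release, stood at 137 and 42.2 CPM (log2 ratio -1.70, -1.86 to -1.54) and Snap25 at 75.5 and 45.1 CPM (-0.74, -0.91 to -0.58), while Vamp2 stood at 93.9 and 150.1 CPM (0.68, 0.57 to 0.79). Postsynaptic and adhesion genes had 6 of 20 higher and 2 lower, with Camk2a, a kinase of the postsynaptic density, at 17.7 and 7.64 CPM (-1.21, -1.62 to -0.82). Glutamate receptors had 7 of 18 higher and 2 lower. Gria2, the AMPA receptor subunit that blocks calcium entry, stood at 504 and 1396 CPM (1.47, 1.43 to 1.51), Grm5 at 19.9 and 119 CPM (2.59, 2.40 to 2.78) and Grm3, a metabotropic receptor that astrocytes and oligodendrocyte precursors also make, at 2.85 and 57.4 CPM (4.34, 3.87 to 4.83).

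The counts of the next 3 lists stand beside 12.9% higher and 6.15% lower among all genes. For GABA receptors and chloride transport, 4 of 16 were higher and 3 lower. Gabrb1 stood at 9.51 and 66.8 CPM (log2 ratio 2.81, 2.54 to 3.09). Slc12a2 and Slc12a5, the chloride importer and exporter, stood at 114 and 102 CPM (-0.16, -0.28 to -0.05) and 3.68 and 1.91 CPM (-0.95, -1.83 to -0.13). Voltage-gated channels had 4 of 22 higher and 2 lower, with Scn2a at 34.4 and 27.8 CPM (-0.31, -0.53 to -0.08) and Kcna2 at 6.73 and 42.2 CPM (2.65, 2.32 to 2.98). Of 24 axon guidance genes 3 were higher and 4 lower. Dcc, the netrin receptor, stood at 343 and 131 CPM (-1.39, -1.48 to -1.29), Robo1, a Slit receptor, at 138 and 82.2 CPM (-0.74, -0.87 to -0.62), and Sema3c, a secreted semaphorin, at 69.0 and 272 CPM (1.98, 1.87 to 2.09).

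Matrix genes of the brain itself went the opposite way to the fibrillar collagens, but both share members with lists given above. Tnc and Ptprz1 are also late radial glia markers, and Cspg4 and Cspg5 oligodendrocyte lineage markers. Col1a1, Col1a2 and Col3a1 are meningeal markers. In the list of lecticans, tenascins, glypicans and syndecans 11 of 19 were at least 2-fold higher and 2 lower, with a median of 1.11 (0.36 in wild type). Bcan, or brevican, and Ncan, or neurocan, stood at 16.1 and 377 CPM (log2 ratio 4.55, 4.36 to 4.75) and 265 and 687 CPM (1.37, 1.32 to 1.43), and Tnr, a tenascin of perineuronal nets, at 16.3 and 65.9 CPM (2.01, 1.79 to 2.24; 0.36 in wild type). Vcan, or versican, stood at 322 and 296 CPM (-0.12, -0.19 to -0.05), and Gpc2 and Gpc3, glypicans of early tissue, were the lower members, with ratios of -2.66 (-3.83 to -1.67) and -1.62 (-1.84 to -1.41).

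Of 15 immediate early genes, which respond to stimuli, 10 were at least 2-fold higher and 0 lower, with a median of 1.88 (1.17 in wild type). Fos stood at 208 and 1396 CPM (log2 ratio 2.75, 2.69 to 2.81), Egr1 at 297 and 1458 CPM (2.30, 2.25 to 2.35) and Junb at 36.1 and 206 CPM (2.51, 2.37 to 2.65), whereas the neuronal activity gene Npas4 stood at 3.19 and 3.37 CPM (0.08, -0.64 to 0.77) and Arc at 3.05 and 5.96 CPM (0.96, 0.36 to 1.57). The metallothioneins Mt1, Mt2 and Mt3, small metal-binding proteins abundant in astrocytes, stood at 16 and 107 CPM (2.74, 2.53 to 2.96), 13.1 and 86.5 CPM (2.73, 2.50 to 2.97) and 33.0 and 186 CPM (2.49, 2.34 to 2.64), with wild-type ratios of 2.85, 2.56 and 1.90.

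Metabolic and housekeeping lists were nearly level. None of 23 cholesterol synthesis genes reached 2-fold, although 21 lay above 0 with a median of 0.30 (0.48 in wild type); Hmgcs1 stood at 332 and 529 CPM (log2 ratio 0.67, 0.62 to 0.73). For oxidative phosphorylation 1 of 37 was higher and 0 lower, with Cox4i1 at 659.7 and 669 CPM (0.02, -0.03 to 0.07). In glycolysis the 1 higher gene of 17 was the astrocyte form of aldolase, Aldoc, at 72.1 and 347 CPM (2.27, 2.17 to 2.37), while Pkm stood at 486 and 299.7 CPM (-0.70, -0.76 to -0.63) and Gapdh at 439 and 332 CPM (-0.41, -0.47 to -0.34). Ribosomal protein genes had 5 of 85 higher and 0 lower, where 12.9% of all genes were higher and 6.15% lower.

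The genes whose age ratio differed most from wild type, ranked by the bound of the difference nearest 0, included several with few counts. On the higher side the 4 Y-linked genes Ddx3y, Eif2s3y, Kdm5d and Uty would have been among the first 10. With sex-linked genes set aside, the ranking began with Cnmd, the cartilage protein chondromodulin, with 16 and 32 counts here and 94 and 2 in wild type, and Clec4n, a lectin of myeloid cells, with 5 and 33 counts and 45 and 4 in wild type. Lyz2, the lysozyme of macrophages, had 112 and 287 counts, or 7.78 and 32.3 CPM (log2 ratio 2.05, 1.73 to 2.38), against 51.9 and 11.1 CPM in wild type. There 180 of the E14.5 counts lay in 1 barcode, without which the wild-type ratio was -0.84 and no longer past 2-fold. Cnmd had 44 of its 94 E14.5 wild-type counts in 1 barcode, and the difference was 6.47 without it. Clec4n likewise had 34 of its 45 counts of E14.5 wild type in 1 barcode, and its wild-type ratio was -1.57 without it. Mia, Plac9, Mmp9 and Rmst were higher in wild type than here at E14.5 and lower at P0: Mia stood at 12.2 and 13.5 CPM against 49.9 and 1.82 CPM. Clec10a, Lgr6 and Lhx9 completed the 10. On the lower side stood Nts, the peptide neurotensin, with 55 and 1 counts here and 33 and 83 in wild type (53 of the 83 in 1 barcode), Nxph2, a neurexophilin, with 45 and 3 counts and 6 and 26, and Hddc3, at 33.0 and 9.33 CPM against 13.4 and 33.4 CPM. Hs3st4, Lhx6, Syt6, Tsku and Spp1, described above, were in this group with the histone gene H2ac24 and the GABA receptor subunit Gabra5. Spp1 was higher at P0 in both pairs. Its wild-type counts were 1 and 1192, with 755 of the latter in 1 barcode, so its difference rests on a single E14.5 count. Over all genes, 32 were at least 2-fold higher here and at least 2-fold lower in wild type, and 4 the reverse. With 1 animal a library these differences were not tested.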

How the data were processed

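Single-cell RNA counts of 4 libraries, each from the cortex of 1 mouse, were taken as deposited by the authors, as whole-number counts per gene and cell barcode. Per the submitters' processing notes, the build named is GRCm39 and the tools named include Seurat 5, R 4.3.2 and FastQC 0.12.1, with no role stated. For the aligner, counter, annotation release, barcode filter and any collapsing of molecules: not given in the sources used here. The members and lists were chosen with earlier results of these data known. Barcodes were kept and summed as described, levels are CPM of the sums, and a gene was measured with at least 30 counts over both sums and called at 2-fold. A sum of 0 was set to 3 counts. Ratios have conditional exact binomial intervals and shares Clopper-Pearson intervals, both 95% and for counting error only; differences between pairs use the summed variances of the log ratios. No doublet caller was run and no groups were tested, since each holds 1 library. Named were the 15 highest and 15 lowest genes by the interval bound nearest 0, the 10 highest and lowest differences from wild type, the first 6 genes of each list and list members past 4-fold, as far as room allowed, leaving out unnamed gene models, haemoglobin, mitochondrial and ribosomal genes and, in the rankings, sex-linked genes, an exclusion added to the rule after seeing the data; other genes in the text were chosen with their values known. TMM factors (edgeR 4.0.16) and DESeq2 1.42.0 size factors, both in R 4.3.3, served only as other scalings. Other steps ran in Python 3.11.15 with pandas 2.3.3, scipy 1.17.1, numpy 2.4.6 and, for plots, matplotlib 3.10.9, and the ratios were tested on simulated data. Values without the barcode richest in a gene were added after seeing the data.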

Additional observations from a re-analysis of the deposited data

Results flagged for a closer look

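In 4 gene lists the median log2 ratio of P0 over E14.5 lay on opposite sides of 0 in the 2 pairs, at least 0.5 apart. It was 0.09 in the knockout-labelled pair and -1.87 in the wild-type pair for Cajal-Retzius genes, 0.32 and -1.22 for ependymal genes, 0.68 and -0.48 for erythroid genes, and -0.53 and 0.09 for genes of G2 and mitosis. The erythroid median was -1.02 with the stricter cell filter, -0.57 and -1.52 in the 2 settings without blood, vessel, immune, meningeal and choroid barcodes, and -1.70 in the projection neuron range (6 genes), so its opposite sign was lost there. The ependymal median, over 5 genes, was 3.75 and 3.45 without those barcodes, -2.19 in the projection neuron range (2 genes) and -0.18 with a minimum of 100 counts. The Cajal-Retzius median was -0.32 with barcodes weighted equally, and the G2 and mitosis median 0.22 in the projection neuron range. Among single genes of the text, 9 were at least 2-fold higher in one pair and at least 2-fold lower in the other. The log2 ratio in the knockout-labelled pair, followed by that in wild type, was 1.70 and -5.66 for Cnmd, 3.42 and -3.60 for Clec4n, 1.79 and -5.11 for Clec10a, 1.47 and -3.74 for Lgr6 and 2.05 and -2.23 for Lyz2. It was -5.09 and 1.22 for Nts, -3.21 and 2.01 for Nxph2, -1.82 and 1.32 for Hddc3 and -1.47 and 1.64 for H2ac24. Nts had 1 count and Nxph2 3 in P0 knockout. In P0 wild type Clec10a had 1 count, Cnmd 2 and Clec4n 4, so their wild-type ratios rest on few counts. Without the richest barcode of 1 wild-type library, the wild-type ratio was -0.84 for Lyz2 (E14.5) and -0.24 for Nts (P0), so neither kept an opposite 2-fold difference. With 1 library a group none of these differences was tested.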

How the results depend on the processing

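No paired analysis was possible because each group is 1 library. The counts of 1906 higher and 906 lower genes stood at 1717 and 1021 with TMM factors and 1705 and 1029 with DESeq2 size factors. They became 7017 and 1659 with no minimum beyond 1 count and 1158 and 585 with a minimum of 100 counts, where more or fewer genes enter by construction. With no minimum, a sum of 0 was still set to 3 counts. A gene with 1 count at E14.5 and none at P0 was therefore called higher at P0, against its counts. How many of the 7017 arose in this way was not counted, so that number does not bear on the direction of rare genes. Within the projection neuron range 1156 genes were higher, the late and outer radial glia median was 0.92 and the inhibitory median 1.02. There the log2 ratio was 1.33 for Dlx2, 0.63 for Dlx6, 1.08 for Gad2, -0.44 for Cx3cr1 and -0.16 for Mbp, each opposite in sign to the value over all cells. That range selects against inhibitory, microglial and oligodendrocyte barcodes by construction, so these values do not bear on the direction over all cells. The microglia and macrophage median was -0.083 without barcodes holding 5 or more counts of blood, vessel, immune, meningeal or choroid lists, which removes those cells by construction, and -0.10 when abundant genes were not used to find them, a setting chosen after seeing the data. Cldn11 stood at 2.21 and 2.08 in these settings. The median of Tsku and its relatives was 0.27 with no minimum, a setting in which a sum of 0 also became 3 counts. The part of that replacement in the median was not tested. Depth limits genes under 30 counts, and 1 animal a library, with age and sex confounded, limits every comparison.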
